A study of Mus musculus with 16 samples.

Results

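The 4 FOXO genes of the mouse (Foxo1, Foxo3, Foxo4 and Foxo6), the FOXO target Depp1 and the transcription factor gene Klf15 were followed in ageing gastrocnemius, a calf muscle of mainly fast fibres. Members were taken by name: every probe whose annotated transcript belongs to 1 of the 6 genes, which gave 9 of the 55588 probes measured. Foxo1, Foxo4 and Foxo6 had 2 probes each, and Foxo3, Depp1 and Klf15 had 1. The 5 genes other than Foxo3 passed the filter on dim probes and were among the 21777 genes tested. The genes were selected on these same values, their log2 signals across the 4 ages. The values are therefore given as a description, with no test between ages given for the members.

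The mice were females of the inbred strain C57Bl/6J, had received no treatment, and were aged 3, 15, 24 or 29 months. Total RNA was measured, with 4 samples of each age on 1 single-colour (Cy3) array each. The comparisons asked how transcript levels in this muscle differed between older and younger ages. The labels do not say whether the 4 samples of an age came from different animals, so a p-value here measures the spread of these samples, which may be technical. A signal is given as log2 of the processed brightness of a probe minus the 75th percentile of its array. A value of 0 is therefore the upper-quartile brightness of that array, and signals of different probes cannot be set against each other.

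Between 48.0% and 60.9% of the spots of an array were well above background, none was saturated, and 15 of 15 muscle fibre markers were well above background on all 16 arrays. Slide 1 held the arrays of 3 and 15 months and slide 2 those of 24 and 29 months, so 15 against 3 months and 29 against 24 months lay within a slide and the other comparisons spanned both. Each age also filled 1 row of its slide, row 2 for 3 and 29 months and row 1 for 15 and 24 months. Within a slide, age and row therefore cannot be told apart. The linear models of limma called 14.6% of the genes tested at 29 against 3 months (6.99% higher and 7.66% lower at 29 months), at a Benjamini-Hochberg adjusted p under 0.05. They called 4.66% at 24 against 3 months, 0.978% at 15 against 3 months, 1.91% at 29 against 24 months and 0.0964% at 24 against 15 months (0.0689% higher and 0.0276% lower). At 29 against 24 months 320 genes were higher and 97 lower. With arrays scaled to their median these counts were 226 and 23, and in the deposited values 663 and 434. At 15 against 3 months 151 were higher and 62 lower, against 154 and 110 with normexp background correction and 186 and 128 in the deposited values. At 24 against 15 months 15 were higher and 6 lower, against 10 and 8 scaled to the median, 14 and 17 with normexp and 13 and 15 in the deposited values. Scaling to the median put the median difference of all genes at 24 against 3 months at -0.15 in place of -0.02. Limma's array weights were lowest on replicates 1 and 3 of 29 months (0.265 and 0.423) and replicates 2 and 4 of 24 months (0.368 and 0.513), and the other arrays lay between 0.995 and 2.07. Of these, 29 months replicate 1 was high in T and NK cell (score 2.33) and B and plasma cell markers (2.90), 24 months replicate 4 in adipocyte (1.96) and B and plasma cell markers (2.32), and 24 months replicate 2 and 29 months replicate 3 were low in fibroblast markers (-1.89 and -1.61). A score is the mean log2 deviation of a marker list from its average over the arrays. At 29 against 3 months 5 of 10 smooth muscle and pericyte markers were lower (median log2 difference -0.96), 4 of 12 fibroblast markers (-0.72) and 3 of 12 endothelial markers (-0.42), with 0 higher in these lists by limma and an unadjusted p under 0.05 for 5 in each. Schwann cell markers had a median of -1.34, with 1 of 8 higher and 1 lower. Other lists had positive medians, with 0 lower by limma. These were macrophage markers (0.59, 1 of 10 higher), B and plasma cell markers (1.12, 1 of 4 higher), red blood cell markers (0.72, 0 of 5 higher) and T and NK cell markers (0.32, 0 of 7 higher). The part of these other cells in the results was not tested. The muscle was measured whole, so fewer cells of a type and less RNA per cell cannot be told apart.

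FOXO proteins are forkhead transcription factors that act downstream of insulin and IGF-1. When the kinase AKT is active it phosphorylates them and they leave the nucleus. When insulin or growth factor signalling is low they enter the nucleus and switch on genes of the ubiquitin-proteasome system, autophagy and fuel switching. In skeletal muscle they are known for driving the wasting programme of fasting and disuse, whose best known targets are the ubiquitin ligase genes Fbxo32 (atrogin-1) and Trim63 (MuRF1). Depp1 is a direct FOXO target that is induced by fasting and whose protein acts in autophagy. Klf15 encodes a zinc finger factor that glucocorticoids induce and that promotes the breakdown of branched-chain amino acids. The arrays measure transcripts, not the phosphorylation or location of these proteins.

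The promoters of Depp1 and Klf15, both highest at 29 months, are shown with that of Trim63, the gene whose pattern over the arrays was most like that of Depp1. Each runs from 250 bases before to 50 bases after the transcription start in the RefSeq table of build GRCm38.p6, on the plus strand. The Depp1 window is chr6:116650434-116650733, the Trim63 window chr4:134314870-134315169 and the Klf15 window chr6:90462326-90462625. Capitals mark the motifs searched on both strands: the FOXO motif GTAAACA, the forkhead motif GTAAATA and the E-box CACGTG, the motif of clock and other basic helix-loop-helix factors.
Depp1: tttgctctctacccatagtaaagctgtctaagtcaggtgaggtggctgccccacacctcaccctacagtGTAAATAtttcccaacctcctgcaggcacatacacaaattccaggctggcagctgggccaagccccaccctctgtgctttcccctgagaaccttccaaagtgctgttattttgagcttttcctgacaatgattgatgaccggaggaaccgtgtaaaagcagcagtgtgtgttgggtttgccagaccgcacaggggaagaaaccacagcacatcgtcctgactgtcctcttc
Trim63: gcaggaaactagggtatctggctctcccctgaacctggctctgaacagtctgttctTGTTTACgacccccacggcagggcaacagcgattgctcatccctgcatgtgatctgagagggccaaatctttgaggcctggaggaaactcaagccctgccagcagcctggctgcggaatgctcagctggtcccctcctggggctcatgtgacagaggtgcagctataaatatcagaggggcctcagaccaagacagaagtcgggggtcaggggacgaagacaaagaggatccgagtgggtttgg
Klf15: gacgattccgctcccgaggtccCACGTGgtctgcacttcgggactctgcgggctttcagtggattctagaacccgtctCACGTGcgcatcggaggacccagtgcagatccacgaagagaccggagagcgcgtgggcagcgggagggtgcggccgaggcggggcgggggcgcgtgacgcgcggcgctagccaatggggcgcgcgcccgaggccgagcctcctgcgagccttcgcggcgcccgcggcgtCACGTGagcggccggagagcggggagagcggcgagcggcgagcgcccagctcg
Depp1 held 1 GTAAATA, starting at -181 from the transcription start. Trim63 held 1 GTAAACA on the opposite strand (TGTTTAC), starting at -194. Klf15 held 3 E-boxes, starting at -228, -172 and -3, and neither forkhead motif. Of all 32851 promoter windows in the table, 3.65% held GTAAACA, 3.04% GTAAATA and 7.15% CACGTG. Promoters were in the table for 4 of the 6 members, and those of Foxo1 and Foxo3 held none of these letters. A match describes the letters of the window and is not evidence of binding.

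Foxo1, the FOXO gene best studied in muscle, was higher at every later age than at 3 months, and most of the difference was already there at 15 months. At 3 months its brighter probe read 1.97, 2.38, 2.51 and 2.78 on the 4 arrays. At 15 months it read 3.70, 4.13, 3.92 and 3.77. At 24 months it read 4.03, 4.06, 3.71 and 3.67. Each of these later arrays lay above every array of 3 months. At 29 months it read 4.57, 3.88, 5.21 and 3.63, so the oldest age held both the highest Foxo1 signal, on replicate 3, and 1 array below all those of 24 months.

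The 29 months arrays averaged 4.32 ± 0.71 for Foxo1 and the 3 months arrays 2.41 ± 0.34 (SD, n = 4 each), a log2 difference of 1.91 (SE 0.27) or 3.76-fold. At 15 against 3 months, within slide 1, the difference was 1.47 (SE 0.27) or 2.77-fold, with no overlap. At that comparison 5.72% of all genes had 4 older arrays above the 4 younger, and at 29 against 3 months 8.74%. From 15 to 24 months the means did not differ beyond the spread (log2 difference of 24 against 15 months -0.01, SE 0.27). At 29 against 24 months the difference was 0.46 (SE 0.27), the groups overlapped, and without the 4 arrays of lowest weight it was -0.11. The second Foxo1 probe gave 1.96 at 29 against 3 months and 1.51 at 15 against 3 months, with the same lack of overlap.

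**Figure D1:**
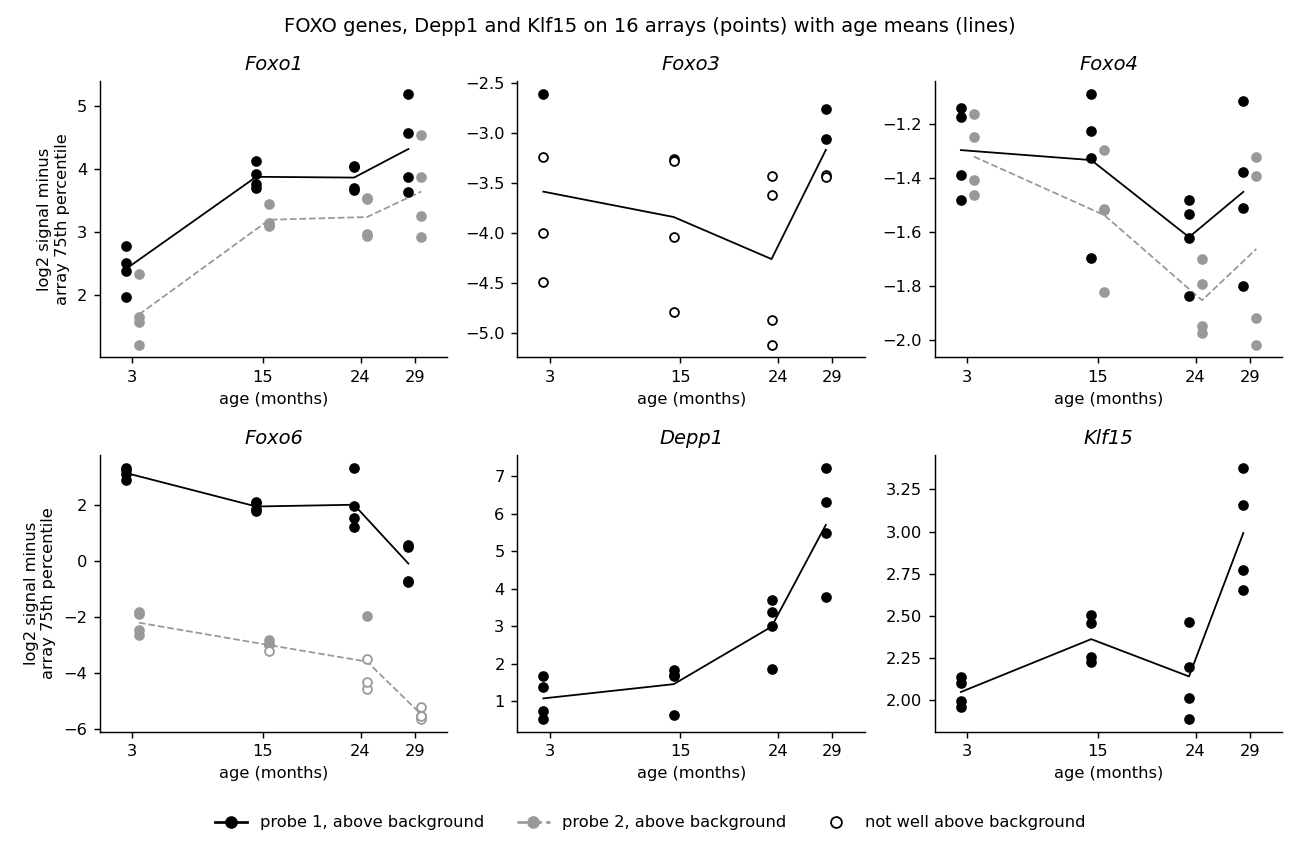
Log2 signal minus the array 75th percentile (y axis) against age in months (x axis) for each member, with 1 point per array, lines through the age means, and a second probe in grey where there is one. Open points were not well above background. Foxo1 separates the 3 months arrays from all others, Depp1 and Klf15 are highest at 29 months, and Foxo6 is lowest there.

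Foxo3, which in muscle drives autophagy and atrogin-1, could not be followed. Its only probe was well above background on 1 array of 3 months, 1 of 15 months, 0 of 24 months and 2 of 29 months. The signals ran from -4.49 to -2.61 at 3 months, -4.79 to -3.26 at 15 months, -5.12 to -3.43 at 24 months and -3.44 to -2.76 at 29 months. The probe fell outside the filter, so no difference is given and nothing follows about the Foxo3 transcript.

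Foxo4, a family member with the same DNA-binding domain, varied little. Its brighter probe read -1.80, -1.38, -1.12 and -1.51 at 29 months, against -1.17, -1.39, -1.14 and -1.48 at 3 months. The arrays of these ages overlapped, and the log2 difference was -0.15 (SE 0.16). For the second probe it was -0.34 (SE 0.16), also with overlap. The lowest mean was at 24 months, where the arrays read -1.84, -1.53, -1.62 and -1.48. That group lay just below the 3 months arrays (log2 difference -0.32, SE 0.16, and gap 0.00076), and the second probe gave -0.53 (SE 0.16) with a gap of 0.24. Among all genes 9.08% had the 4 arrays of 24 months below the 4 of 3 months. In the deposited values, which cover only the second probe, Foxo4 differed by -0.42 at 29 against 3 months.

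Foxo6, the FOXO gene first described in the brain and whose protein moves out of the nucleus less readily than the others, went the other way from Foxo1. Its brighter probe read 3.33, 3.26, 2.87 and 3.10 at 3 months. At 15 months it read 1.85, 1.77, 2.09 and 2.05. These groups did not overlap, and the 15 months arrays lay close together. At 24 months it read 3.32, 1.21, 1.96 and 1.53, with replicate 1 at the level of the 3 months arrays. At 29 months it read -0.70, 0.50, -0.75 and 0.57, below every array of the younger ages.

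Foxo6 averaged -0.10 ± 0.73 at 29 months and 3.14 ± 0.20 at 3 months (SD, n = 4 each), so it was lower at 29 months by 9.42-fold (log2 difference -3.24, SE 0.39). Within slide 1 it was lower at 15 than at 3 months (log2 difference -1.20, SE 0.39), and within slide 2 lower at 29 than at 24 months (-2.10, SE 0.39). Non-overlap in the lower direction was found for 11.0%, 6.35% and 2.33% of all genes at these 3 comparisons. From 15 to 24 months the groups overlapped and the difference was 0.06 (SE 0.39). The second Foxo6 probe was dim. It was well above background on 4, 3, 1 and 0 arrays of 3, 15, 24 and 29 months, so it passed the filter only through the 3 months arrays. Its fall is therefore not separate support. With the 29 months signals raised to a floor, it was 2.49-fold lower at 29 than at 3 months. In this value each array of 29 months takes the lowest signal called above background there, or its own if that was higher. It is not a strict limit. Without the 4 arrays of lowest weight the difference of the brighter probe at 29 against 3 months was -2.61, and that of 24 against 15 months was 0.70.

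Depp1 had the largest difference of the members between the oldest and the youngest age. At 3 months it read 0.53, 1.38, 0.74 and 1.66, and at 15 months 0.63, 1.67, 1.85 and 1.69, with overlap. At 24 months it read 3.71, 1.85, 3.01 and 3.39, and at 29 months 6.32, 3.78, 7.23 and 5.49. The spread grew with age: the SD was 0.53 at 3 months, 0.56 at 15, 0.81 at 24 and 1.47 at 29 months. Even so, the lowest array of 29 months, replicate 2, lay above the highest of 24 months by 0.071.

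Depp1 averaged 5.70 ± 1.47 at 29 months and 1.08 ± 0.53 at 3 months (SD, n = 4 each), a log2 difference of 4.63 (SE 0.59) or 24.7-fold. At 24 against 3 months it was 1.91 (SE 0.59), without overlap, as for 5.71% of all genes, and at 15 against 3 months 0.38 (SE 0.59), with overlap. At 29 against 24 months, within slide 2, it was 2.72 (SE 0.59) or 6.57-fold, where 4.71% of all genes had no overlap in this direction. Without the 4 arrays of lowest weight that step was 1.28 and the difference between 29 and 3 months 3.56. The step of 24 against 15 months was 1.53 with all arrays and 1.90 without those 4, so the larger of these 2 steps changed. Ordered by age the Depp1 means were 1.08, 1.46, 2.99 and 5.70, and of neighbouring ages only 3 and 15 months overlapped. The gap between 15 and 24 months was 0.0058, where 4.21% of all genes were separated in this direction and 5.79% in the other.

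Klf15 was highest at 29 months, with a smaller difference but little spread. It read 1.99, 1.96, 2.10 and 2.14 at 3 months and 2.23, 2.45, 2.26 and 2.51 at 15 months. These groups lay close and did not overlap, with a gap of 0.091, as for 5.72% of all genes in this direction. At 24 months it read 2.46, 2.01, 1.89 and 2.20, which overlapped both. At 29 months it read 2.77, 3.16, 3.38 and 2.65, above every array of the other ages. Among all genes 8.74% had such a separation at 29 against 3 months and 4.71% at 29 against 24 months.

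Klf15 averaged 2.99 ± 0.34 at 29 months and 2.05 ± 0.09 at 3 months (SD, n = 4 each), a log2 difference of 0.94 (SE 0.16) or 1.92-fold. At 29 against 24 months it was 0.85 (SE 0.16) or 1.80-fold, at 15 against 3 months 0.31 (SE 0.16), and at 24 against 3 months 0.09 (SE 0.16). A linear fit on age, blocked by slide, gave slopes in log2 units per month. They were 0.0475 (SE 0.0174) for Klf15, 0.118 (SE 0.0206) for Foxo1, -0.147 (SE 0.0408) for Foxo6, 0.107 (SE 0.0634) for Depp1 and 0.00234 (SE 0.0122) for Foxo4. With slide as a term, these slopes rest on differences within the slides and do not give the change over the whole span. The row on the slide goes with age there and is not taken out. For Depp1 the differences within the slides were unequal, 0.38 at 15 against 3 months and 2.72 at 29 against 24 months.

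**Figure D2:**
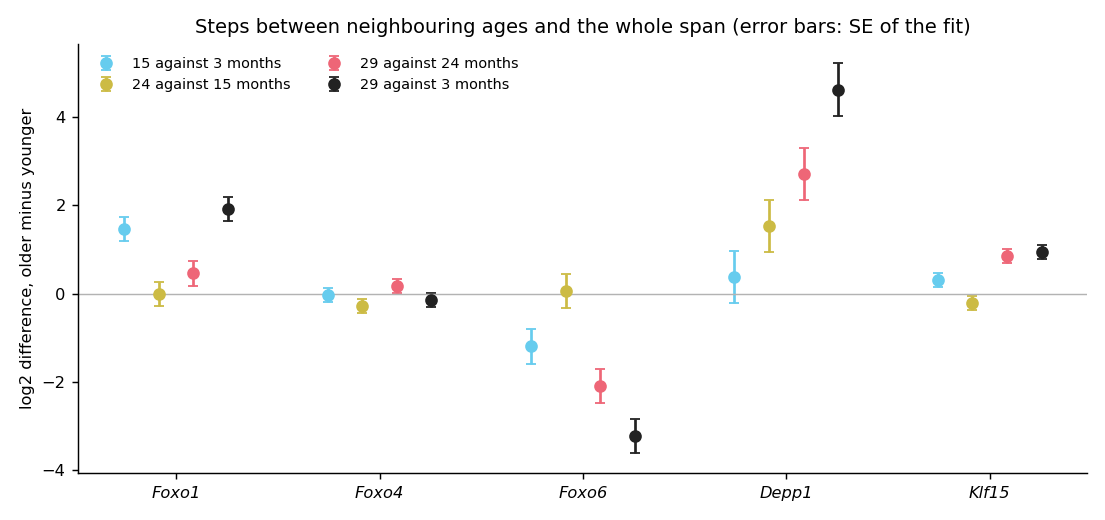
Log2 difference, older minus younger (y axis), of the 5 members that passed the filter (x axis), for 15 against 3, 24 against 15, 29 against 24 and 29 against 3 months. Points are differences of means of 4 arrays and bars are the SE of the fit. Foxo1 has its large step at 15 months (1.47), while Depp1 (2.72), Klf15 (0.85) and Foxo6 (-2.10) have theirs at 29 months. Without the 4 arrays of lowest weight, not drawn, the Depp1 difference was larger at 24 against 15 months (1.90) than at 29 against 24 months (1.28).

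Part of the genes listed as FOXO targets were higher at 29 months, among them genes of protein breakdown and fuel use. Of 63 such genes tested, 25 were higher and 3 lower at 29 against 3 months (39.7% higher, beside 6.99% of all genes), with a median log2 difference of 0.36 beside -0.04 over all genes. At 24 against 3 months 3 were higher and 1 lower, beside 2.17% and 2.49% of all genes, and at 15 against 3 months 1 was higher and 1 lower, beside 0.693% and 0.285%. These comparisons share the arrays of 3 months. At 29 against 24 months, which shares no array with 15 against 3 months, 14 of the 63 were higher and 0 lower by limma (22.2% higher, beside 1.47% of all genes higher and 0.445% lower, and 32 with an unadjusted p under 0.05), with a median of 0.32 beside -0.03. Of the 25 genes higher at 29 than at 3 months, 20 differed more between 24 and 29 months than between 3 and 24 months. The 25 were picked through the 29 months arrays, and the step from 3 to 24 months spans the slides. That share was not computed for all genes called higher, so it is not shown to be particular to FOXO targets.

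The count at 29 against 24 months changed with the arrays used and with the fit. It was 9 without 24 months replicate 2, 3 or 4, 8 without 24 months replicate 4 and 29 months replicate 1, 1 without the 4 arrays of lowest weight, and 1 when only the 8 arrays of the 2 ages were fitted. Calls over all genes fell as well. Genes higher numbered 320, but 120, 152 and 132 without 24 months replicate 2, 3 and 4 in turn. They numbered 189 without 24 months replicate 4 and 29 months replicate 1, 32 without the 4 arrays, and 7 with only the 2 ages. The change of 29 against 24 months minus that of 15 against 3 months was itself tested with limma after the values were seen. It was called in 4 of the 63 targets, all with the higher value at the later step (Eif4ebp1, Cdkn1b, Ctsl and Ccng2, adjusted p = 0.00574 to 0.0434), beside 0.317% of all genes in that direction and 0.354% in the other. For Cdkn1b the later step was 0.40 and not called, and the earlier one was a fall of 0.87.

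In the list of proteolysis and autophagy, 13 of 26 were higher and 1 lower at 29 against 3 months (median log2 difference 0.40). These were 50% and 3.85% of the list, beside 6.99% and 7.66% of all genes. Fbxo32 averaged 6.40 ± 0.71 at 29 months and 3.68 ± 0.84 at 3 months (SD, n = 4 each), a log2 difference of 2.71 (limma adjusted p = 0.000327), and was 2.01 higher at 29 than at 24 months (adjusted p = 0.0161). Trim63 read 7.88, 6.87, 8.85 and 7.60 at 29 months, against 5.38, 5.49, 5.57 and 5.48 at 3 months. Gabarapl1, which builds autophagosome membranes, rose by 1.93 (adjusted p = 2.52e-05). Psmd11, a subunit of the proteasome lid that FOXO4 regulates in human stem cells, was 0.82 higher (adjusted p = 0.000339). The member that was lower, the autophagy conjugation gene Atg12, fell by 0.31 (adjusted p = 0.0488), a call lost without any 1 of 13 of the 16 arrays. At 15 against 3 months 0 of 26 were called by limma, beside 0.978% of all genes, and 3 had an unadjusted p under 0.05.

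In the list of metabolism and growth, 9 of 21 were higher and 0 lower at 29 against 3 months (median log2 difference 0.57), and 13 had an unadjusted p under 0.05. The share higher was 42.9%, beside 6.99% of all genes higher and 7.66% lower. Pdk4, whose product inhibits pyruvate dehydrogenase and so spares glucose, was the only gene of this list that rose at every later age: by 1.48 at 15 months (adjusted p = 0.0167), 1.18 at 24 months (adjusted p = 0.0254) and 3.44 at 29 months (adjusted p = 6.97e-06), each against 3 months. Angptl4, an inhibitor of lipoprotein lipase, rose by 3.76 (adjusted p = 0.000123). The stress sensor Sesn1 rose by 1.06 (adjusted p = 0.0242, and 0.066 without 3 months replicate 2), and the translation repressor Eif4ebp1 by 0.86 (adjusted p = 0.0164). Irs2, the adaptor of the insulin receptor, was 0.67 higher (adjusted p = 0.0488), a call lost without any 1 of 11 arrays and under 10 of 14 other settings.

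The list of stress and cell cycle genes had no common direction, with 3 of 16 higher and 2 lower (median -0.005). These were 18.75% and 12.5% of the list, beside 6.99% and 7.66% of all genes. Gadd45a, a stress gene that denervation induces in muscle, was 2.27 higher (adjusted p = 3.76e-05), and the cell cycle inhibitor Cdkn1a 2.14 higher (adjusted p = 0.000468). Cdkn1b, the inhibitor p27, fell by 0.78 at 29 months (adjusted p = 0.000921), 1.18 at 24 months (adjusted p = 0.000145) and 0.87 at 15 months (adjusted p = 0.0036), each against 3 months. Bcl6, a transcriptional repressor, fell by 0.79 at 29 months (adjusted p = 0.0105, but 0.0502 without the 4 arrays of lowest weight). The antioxidant genes Sod2 and Cat, also listed as FOXO targets, were not called. Of 48 listed genes with a promoter in the RefSeq table, 6 (among them Trim63, Txnip and Sesn1) held GTAAACA and 0 held GTAAATA. The E-box CACGTG was in more of them, 9, and the glucocorticoid receptor motif in 0. Over all windows, counted by window and not by gene, the shares were 3.65% for GTAAACA, 3.04% for GTAAATA and 7.15% for CACGTG.

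Upstream of the FOXO factors, few genes of insulin, PI3K and AKT signalling were called. Of 31 tested, 3 were higher and 3 lower at 29 against 3 months (median 0.03 beside -0.04 over all genes), which is 9.68% in each direction beside 6.99% and 7.66% of all genes. Scaled to the median, 0 were higher and 1 lower, and without the 4 arrays of lowest weight 6 were higher. Irs1, the other main adaptor of the insulin receptor in muscle, fell by 1.04 at 29 months (adjusted p = 0.00256), 1.21 at 24 months (adjusted p = 0.00325) and 0.91 at 15 months (adjusted p = 0.0371), each against 3 months. The Irs1 signal averaged 3.68 ± 0.31 at the oldest age, 29 months, against 4.73 ± 0.41 for the 3 months arrays (SD, n = 4 each). The receptor gene Insr was 0.36 higher (adjusted p = 0.0299), and lost the call when replicate 2 or 3 of 29 months, or replicate 1, 2 or 3 of 3 months, was left out (adjusted p up to 0.0786). Irs2 belongs to this list too, and both Irs2 and Insr are among the FOXO targets counted above, so the 2 results share genes. The phosphatase subunit Ppp2ca was 0.57 higher (adjusted p = 0.0047), while the PI3K subunit Pik3r2 fell by 0.53 (adjusted p = 0.00413). Both calls were lost with arrays scaled to the median (adjusted p = 0.0713 and 0.0716). Akt1 and Akt2, kinases that inactivate FOXO, differed by 0.15 and 0.15 (adjusted p = 0.728 and 0.612).

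Of 41 genes whose products modify or bind FOXO proteins, 2 were higher and 4 lower (median -0.06), or 4.88% and 9.76%. Of all genes 6.99% were higher and 7.66% lower. The deacetylase Hdac4 rose by 0.93 at 29 months (adjusted p = 0.0026) and 0.97 at 24 months (adjusted p = 0.00604), and the deacetylase Sirt1 rose by 0.46 at 29 months (adjusted p = 0.0131). The Sirt1 call was lost scaled to the median (adjusted p = 0.0629), with only the 2 ages fitted (0.0586) and without the 4 arrays of lowest weight (0.0866). The kinase Mapk9 fell by 0.73 (adjusted p = 0.000512) and Smad3, a partner in TGF-beta signalling, by 0.93 (adjusted p = 0.00207). Cop1 and Nlk were lower with adjusted p of 0.0439 and 0.0425, and lost the call without any 1 of 11 and 9 arrays. The energy sensor kinase Prkaa2 was -0.33 (adjusted p = 0.0706). Among 19 other genes with forkhead symbols, a list that holds the oxidoreductase gene Foxred1 by its name, 2 were higher (Foxk1 by 0.82, adjusted p = 0.00327, and Foxp1 by 0.69, adjusted p = 0.00545) and 1 lower (Foxk2, adjusted p = 0.0386, lost without any 1 of 6 arrays). These were 10.5% and 5.26% of that list, near the shares of all genes.

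Genes of the glucocorticoid receptor and its targets, the setting in which Klf15 is usually described, were higher in 12 of 22 cases and lower in 0 at 29 against 3 months (median 1.05 beside -0.04 over all genes), and 15 had an unadjusted p under 0.05. The share higher was 54.5%, beside 6.99% of all genes higher and 7.66% lower. Genes called higher included the metallothioneins Mt2 (3.70, adjusted p = 3.12e-05) and Mt1 (2.50, adjusted p = 0.000279), the mTORC1 inhibitor Ddit4 (3.16, adjusted p = 0.00159) and the transcription factor Cebpd (2.78, adjusted p = 0.000645). The zinc finger gene Zbtb16 was higher at every later age than at 3 months, by 1.29 at 15 months (adjusted p = 0.00308), 1.12 at 24 months (adjusted p = 0.00329) and 1.68 at 29 months (adjusted p = 4.65e-05). Tsc22d3 (GILZ) rose by 1.17 at 29 months (adjusted p = 0.00198). The receptor gene Nr3c1 was -0.37 at 29 against 3 months (adjusted p = 0.055), and fell by 0.48 at 24 against 3 months (adjusted p = 0.0374). Fkbp5, a receptor co-chaperone, differed by 1.15 and was not called at 29 months (adjusted p = 0.0936). The genes Per1, Sgk1 and Pik3r1 were not called either, and Cdkn1a stands in this list as well as among the FOXO targets.

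Genes of amino acid breakdown and other KLF15 targets were mostly not called. Of 30 genes, 1 was higher (the acylcarnitine carrier Slc25a20, by 0.84, adjusted p = 0.0246) and 4 were lower at 29 against 3 months (median -0.15 beside -0.04), and the 4 were Mccc2, Aldh4a1, Ivd and Bckdk. These were 3.33% and 13.3% of the list, beside 6.99% and 7.66% of all genes. Mccc2, of leucine breakdown, fell by 0.56 (adjusted p = 0.00526) and Aldh4a1, of proline breakdown, by 0.50 (adjusted p = 0.00696, but 0.101 scaled to the median). Bcat2, the mitochondrial transaminase of branched-chain amino acids, was -0.38 (adjusted p = 0.092) and Prodh, the first enzyme of proline breakdown, 0.36 (adjusted p = 0.302). The calls of Slc25a20 and Bckdk were lost without any 1 of 4 and 5 arrays, and that of Ivd without either of 2. Of 13 other KLF genes, 3 were higher (Klf10 by 1.19, adjusted p = 0.01, but 0.0887 without the 4 arrays of lowest weight, Klf6 by 0.79, adjusted p = 0.0196, and Klf9 by 0.49, adjusted p = 0.0409) and 2 lower (Klf12 by -0.64, adjusted p = 0.00681, and Klf7 by -0.49, adjusted p = 0.0459). These were 23.1% and 15.4% of the KLF genes, beside 6.99% and 7.66% of all genes. Without 1 array Klf6, Klf9 and Klf7 lost the call in 3, 10 and 12 of 16 cases.

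Clock genes differed at 29 months as well, with 5 of 18 higher and 9 lower than at 3 months (median log2 difference -0.40 beside -0.04 over all genes). These were 27.8% and 50% of the list, beside 6.99% and 7.66% of all genes. Dbp, an output factor of the clock, read 2.92, 3.21, 1.85 and 3.59 at 29 months, against 6.06, 5.99, 6.00 and 5.51 at 3 months, a fall of 3.00 (adjusted p = 1.68e-05). Its fall at 29 against 24 months was 2.79 (adjusted p = 0.000296). The labels give no time of day for the samples, and the part of it in the values of Klf15, Foxo6 and the target genes was not tested.

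The genes whose signal varied most like that of each member were sought among 11550 genes well above background on all 16 arrays. These arrays share 4 ages and 2 slides, so the coefficients are descriptions. Depp1 was most like Trim63 (Pearson r = 0.97, Spearman rho = 0.87), followed by the ferritin light chain gene Ftl1 (r = 0.95), the histone gene H3c4 (0.94) and the repressor gene Tgif1 (0.94), and most opposite to the phosphodiesterase gene Pde4a (-0.93). Foxo1 was most like Plin4 (r = 0.96), a lipid droplet coat gene, then Pde7a (0.95), Hook1 (0.93) and Zbtb16 (0.93). Plin4 is also in the adipocyte marker list, in which it was the 1 of 11 called higher at 29 against 3 months. The other 10 markers of that list had r of -0.26 (Cfd) to 0.47 (Lipe) with Foxo1, with Adipoq, which defines adipocytes, at -0.04. At 15 against 3 months 10 of the 11 were positive (median log2 difference 0.39, Adipoq 1.79), and their part in the Foxo1 values was not tested.

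Foxo6 was most like the anion exchanger gene Slc26a6 (r = 0.97), Plpp7 (0.93), the DNA methyltransferase gene Dnmt3a (0.93) and Pld2 (0.93), and most opposite to Tacc2 (-0.92) and the ubiquitin ligase gene Cblb (-0.91). Dnmt3a fell by 1.46 at 29 against 3 months (adjusted p = 2.82e-05) and Cblb rose by 1.36 (adjusted p = 2.53e-05). Klf15 was most like Gtpbp4 (r = 0.95), Tti2 (0.94), Retreg1 (0.93) and Phf3 (0.93). Retreg1, a receptor for autophagy of the endoplasmic reticulum, rose by 2.11 (adjusted p = 2.71e-05). Foxo4 had no close match, with Sel1l2 highest at r = 0.83.

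Deviations from the age mean over the 16 arrays were also compared, for the 10 pairs of the 5 members and for each member with Fbxo32, Trim63, Gabarapl1, Pdk4, Irs2, Tsc22d3, Fkbp5 and Dbp. These 50 relations were chosen with the values known and are given as descriptions. Those named below were picked after the coefficients were seen, and most of the 50 are not given. Foxo1 and Fkbp5 had r = 0.91 and rho = 0.81, with both on the same side of their age means on 14 of 16 arrays. Without the arrays of 29 months replicates 3 and 4, farthest from the median, r was 0.82.

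Depp1 and Trim63, already the closest match over all arrays, had r = 0.87 and rho = 0.74 within ages, with 13 of 16 arrays on the same side. Without 24 months replicate 2 and 29 months replicate 2, r was 0.67. Foxo1 and Fbxo32 had r = 0.74 and rho = 0.76, and r = 0.66 without the 2 farthest arrays. Foxo6 and Dbp varied together with r = 0.55 and rho = 0.72, and r = 0.73 without the 2 farthest. Foxo1 and Depp1 had r = 0.63 and rho = 0.59, and r = 0.55 without the 2 farthest. Other relations were negative or less stable. Foxo1 and Dbp had r = -0.82 and rho = -0.62, but r = -0.44 without the 2 farthest. For Foxo1 and Klf15 r was 0.53 and rho 0.32, but r was 0.03 without the 2 farthest.

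**Figure D3:**
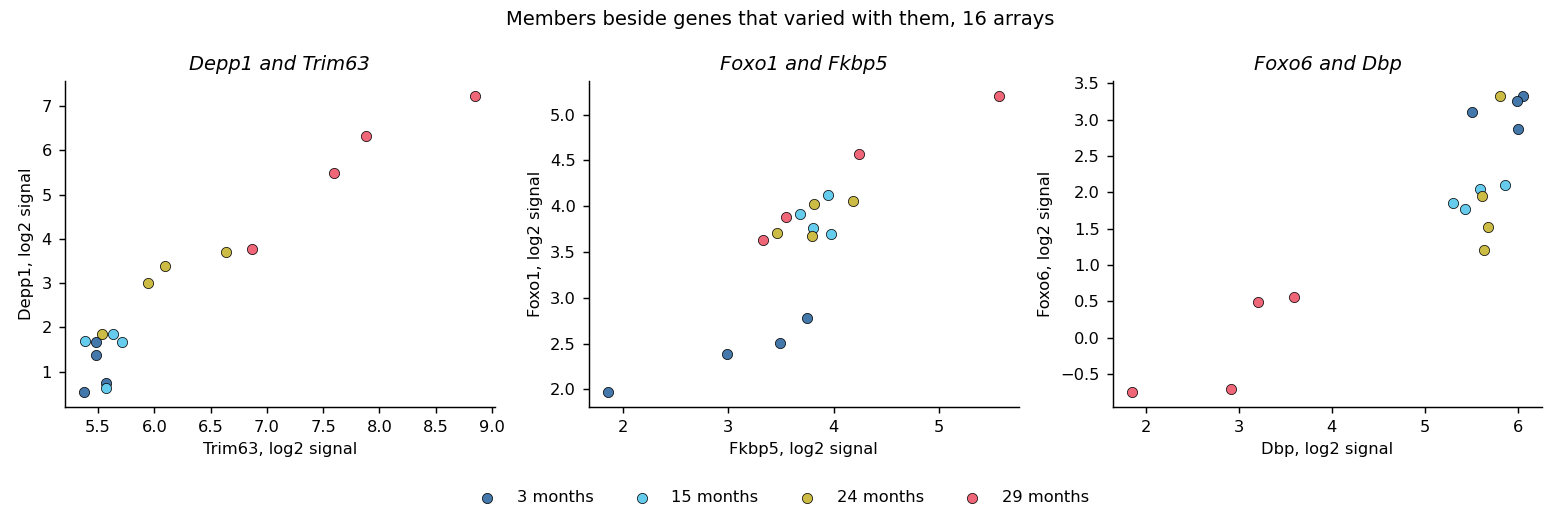
Log2 signals of Depp1 against Trim63, Foxo1 against Fkbp5 and Foxo6 against Dbp (y against x, each minus the array 75th percentile), with 1 point per array coloured by age. Within 29 months the Depp1 and Trim63 signals are both highest on 1 array (7.23 and 8.85) and lowest on another (3.78 and 6.87), and the 29 months arrays are apart from all others in Dbp.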

How the data were processed

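Scanner files hold spot brightness as intensity, per the file headers from Feature Extraction 10.7.1.1, which marked outliers and subtracted background, and arrays were not normalized to each other. Values in the table deposited for the series are log2. How the authors made them, centring included, is not stated in the labels or headers. The medians of its 16 columns were 4.55 to 4.69. Set against the scanner values over all probes (not independent replicates), its rows gave r of -0.00495 to 0.0183 by probe name and 0.985 to 0.993 by row order, so it was joined by feature number and used as an alternative. The array design is annotated on mouse build mm9. RefSeq GRCm38.p6 gave names (1 gene for 26540 probes, none for 29048) and promoters.

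Spots of a probe were averaged without outliers, which dropped 93 probes. Probes had to be well above background on the 4 arrays of some age, and a gene was its brightest kept probe. The 16 arrays entered 1 model of age means (limma 3.58.1, R 4.3.3), with 12 residual and 2.73 prior degrees of freedom. Its two-sided p-values were adjusted by Benjamini-Hochberg across 21777 genes. The fit was also run on simulated data with independent noise and no slide or array effects, so that run does not bear on such effects. Slide and row come from the headers, and slide could not be a term beside age. The number of arrays limits the precision.

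The members, the gene lists and the rule for named genes were chosen with earlier results of these data known. Named genes were the members, up to 4 called genes of largest rise and fall per list at 29 against 3 months, a fixed set of genes, of which Twist2 was not tested and some are not reported here, and per member the 4 most and 2 least alike. Genes named to explain a count of 5 or fewer, Psmd11, Ftl1 and the other markers and targets outside this rule were chosen after their values were seen. Same-numbered samples were not treated as pairs (r over 0.1 in 6 of 24 pairs, -0.47 to 0.30). The alternatives were other scalings, background correction, filters, probe rules, fits and left-out arrays.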

Additional observations from a re-analysis of the deposited data

Results flagged for a closer look

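In 84 groups of 4 arrays (9 member probes and 12 marker or clock scores at 4 ages), 7 held an array far from the other 3 by Dixon's criterion, which chance meets in about 1 in 20. Depp1 was 0.627 on 15 months replicate 1, while its other 3 arrays read 1.67 to 1.85. The second Foxo1 probe was 3.45 on 15 months replicate 2, against 3.10 to 3.14 on the others.

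The adipocyte score was 1.96 on 24 months replicate 4, against -0.054 to 0.099 on the others, and on that array the muscle fibre score was -0.148, against 0.020 to 0.049. The T and NK cell score was 2.33 on 29 months replicate 1, against -0.201 to -0.068, and on that array the muscle fibre score was -0.350, against 0.046 to 0.101. The endothelial score was -1.01 on 24 months replicate 2, against -0.094 to 0.022 on the others. Without 24 months replicate 4 and 29 months replicate 1, the log2 differences at 29 against 3 months were 1.83 for Foxo1, 4.42 for Depp1, -3.03 for Foxo6 and 1.02 for Klf15.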

How the results depend on the processing

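Over the alternatives, Foxo1, Depp1, Foxo6 and Klf15 kept the direction of their difference at 29 against 3 months, and leaving out 1 array at a time gave 1.62 to 2.14 for Foxo1, 4.12 to 5.27 for Depp1, -3.46 to -3.02 for Foxo6, 0.81 to 1.06 for Klf15 and -0.27 to -0.04 for Foxo4. Foxo1 was 1.34 and Foxo6 -2.61 without the 4 arrays of lowest weight, which were chosen after seeing the data, and Foxo4 was -0.42 in the deposited values.

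The number of genes called depended more on the settings, and the cause was not tested. At 29 against 3 months it was 3190, and 1537 scaled to the median, 1983 with only the 2 ages fitted and 1951 with a fold of at least 1.5. At 24 against 3 months it was 1014, and 512 scaled to the median, 1844 with normexp on the median spot signals, 470 with no filter and 558 with only the 2 ages. At 15 against 3 months it was 213, and 89 scaled to the median, 106 with no filter, 1113 with array weights, 721 with only the 2 ages, 802 without the 4 arrays and 309 without 24 months replicate 4 and 29 months replicate 1. At 29 against 24 months it was 417, and 249 scaled to the median, 672 with normexp, 1097 in the deposited values, 153 with no filter, 229 with array weights, 9 with only the 2 ages, 52 without the 4 arrays and 263 without those 2. At 24 against 15 months it was 21, and 10 with probes above background on all 16 arrays, 139 with array weights, 13 with only the 2 ages, 9 without the 4 arrays and 51 without those 2. The line in age called 138, and 68 scaled to the median, 66 with no filter, 1092 with array weights, 585 without the 4 arrays and 204 without those 2. Without 1 array the count ran from 2185 to 3544 at 29 against 3 months, 453 to 1282 at 24 against 3, 86 to 279 at 15 against 3, 153 to 562 at 29 against 24, 2 to 88 at 24 against 15 and 52 to 202 for the line. FOXO targets higher at 29 against 3 months numbered 21 to 26 without 1 array.

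Of 16 arrays, 2 correlated best with an array of their own number, which does not show whether same-numbered samples share more than a number. With the replicate block 2731 genes were called at 29 against 3 months, 258 at 29 against 24, 32 at 24 against 15 and 87 by the line. Slide as a random block was not run, because age already fixes the slide. Dim probes, such as that of Foxo3, have no reliable order.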
